A study of Mus musculus with 15 samples.

Results

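Nt5c2 encodes cytosolic 5′-nucleotidase II, an enzyme that removes the phosphate from purine nucleotides. Its log ratios were measured here in brains of homozygous O377 mice, whose line carries a changed allele of Crybb2, a crystallin gene, set against brains of wild-type mice. The probes were taken by gene symbol from the platform annotation, with older symbols updated. They were 2 of the 20205 probes on the array, and Nt5c2 was 1 of 9648 genes named by a single symbol. The gene was chosen by its log ratio on these arrays, which turned sign with the dyes, so the size of that turn is described below and not tested.

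Each of the 15 arrays carried 2 dyes. One channel held RNA of 5 brains of the homozygous O377 line, and the other held a pool of RNA from 4 wild-type brains. The mutant RNA was labelled with Cy5 on 7 arrays (mutant-Cy5 arrays) and with Cy3 on 8 arrays (mutant-Cy3 arrays). The sources used here give no age, sex or strain background, and no array is tied to a brain, so the spread below is between arrays and may be technical. The wild-type pool is 1 control sample, whose own spread is not measured.

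The enzyme prefers IMP and GMP, and also acts on AMP less well. It releases the nucleosides inosine and guanosine, which can leave the cell or be broken down further, and so it sets purine loss against purine salvage. Neurons and glia rely strongly on salvage to keep their nucleotide pools. In humans, loss of NT5C2 function causes a form of hereditary spastic paraplegia.

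Values are log ratios taken as log2, and their direction is not stated: Cy5 over Cy3, or mutant over wild type. Each probe was therefore split into 2 parts. The dye-switching component is the mean of the mutant-Cy5 arrays minus the mean of the mutant-Cy3 arrays, divided by 2. The shared component is the mean of both orientation means. If the ratios run Cy5 over Cy3, the dye-switching component is the genotype difference, negative meaning lower in the mutant. If they run mutant over wild type, it is a dye effect, and the genotype difference lies in the shared component. The labels and the values do not settle which holds, so no value below is called higher or lower in the mutant. Per array, 7843 to 10515 probes had a value, array medians lay between -0.00618 and 0.0165, and interquartile ranges lay between 0.386 and 0.892. A log ratio carries no level, so the labelled tissue could not be checked by the levels of brain markers. Of 10 neuronal markers listed, 4 had a tested probe, and so did 2 of 6 astrocyte, 1 of 6 oligodendrocyte and 2 of 7 microglial markers.

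The first Nt5c2 probe had a value on every array. On mutant-Cy5 arrays, its log ratios were -1.62, -1.41, -1.21, -1.18, -0.95, -0.50 and -0.62 on arrays 1, 2, 5, 6, 9, 10 and 13. On mutant-Cy3 arrays, they were 0.92, 1.14, 1.38, 1.04, 1.66, 1.42, 1.12 and 1.43 on arrays 3, 4, 7, 8, 11, 12, 14 and 15. All 15 values lay on the side set by the dyes, and the orientations did not overlap, with a gap of 1.41 between the value nearest 0 in each. Of the 4135 probes with values on all 15 arrays, 1.04% had orientations that did not overlap. Since Nt5c2 was chosen for this pattern, nothing is read from that share.

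Nt5c2 averaged -1.07 ± 0.41 over the 7 mutant-Cy5 arrays and 1.26 ± 0.25 over the 8 mutant-Cy3 arrays (SD). These means correspond to ratios of 2.1-fold in size on mutant-Cy5 arrays and 2.4-fold on mutant-Cy3 arrays. The spread was wider on mutant-Cy5 arrays, where arrays 10 and 13 stood nearest 0. The dye-switching component was -1.17 ± 0.09 (SE), with a 95% confidence interval from -1.35 to -0.99. On a linear scale this is 2.24-fold in size, with an interval from 1.98-fold to 2.54-fold. Since Nt5c2 was chosen for this value, its size may be overstated, and the interval is a description and not a test. It also treats the arrays as independent, though all draw on the same brains. The single arrays exceeded 1.5-fold in size on 14 of 15 arrays and 2-fold on 11.

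**Figure D1:**
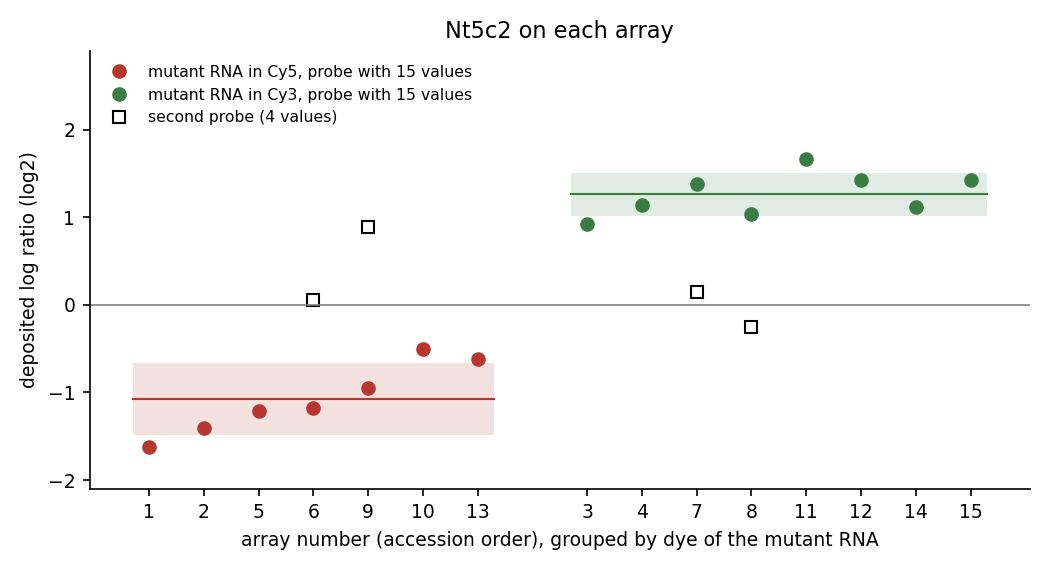
Deposited log ratio (log2, vertical axis) of both Nt5c2 probes on each array (horizontal axis), with the mutant RNA in Cy5 on the left and in Cy3 on the right. Filled points are the probe with 15 values, lines and shaded bands its mean ± SD (-1.07 ± 0.41 in Cy5 and 1.26 ± 0.25 in Cy3), and open squares the second probe, whose 4 values do not follow the first.

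The standing of Nt5c2 among all probes of an array differed between arrays. On array 15, 0.816% of measured probes lay further out than Nt5c2 on the same side, and on array 12 it was 0.936%. On arrays 10 and 13 these shares were 21.1% and 15.4%, and on the other 11 arrays they were between 1.72% and 4.9%. In units of the array's own interquartile range, Nt5c2 stood 0.555 from 0 on array 10 and 1.07 on array 13. On arrays 1, 2, 7, 11, 12 and 15 it stood at least 3.25 such ranges from 0. Array 10 also had the widest interquartile range, 0.892, and array 12 the narrowest, 0.386.

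Nt5c2 varied somewhat more than the median probe around its orientation means. Its residual SD was 0.33, against a median of 0.29 over the probes with 15 values, and 67.7% of those had a smaller one. Its dye-switching component was the most negative of the 8058 tested probes and ranked 6 by size in either direction. Since Nt5c2 was chosen for this value, the rank is a description only. It was 5th on the negative side when 3 arrays per orientation sufficed. The median size over all tested probes was 0.08. Among genes named by 1 symbol, 3 were larger in size. These were the protease gene Capn3 at 1.72 ± 0.12 (SE), the cell cycle gene Cdc16 at 1.45 ± 0.61, and Serpina12, an adipokine of the serpin family, at 1.18 ± 0.14. The next 3 below Nt5c2 were Sec16b at 1.15 ± 0.71, Atmin at 1.11 ± 0.61 and Spg20 at 1.09 ± 0.68. Cdc16, Sec16b, Atmin and Spg20 had values on only 8 to 12 arrays. Their highest values on mutant-Cy5 arrays were 7.69, 7.27, 7.41 and 7.22, in that order. None of these genes passed the threshold (limma adjusted p from 0.468 to 0.668), so their place beside Nt5c2 rests on widely spread values.

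The second Nt5c2 probe did not repeat the pattern of the first. It had values on 4 arrays only, too few of each orientation to enter the model. On mutant-Cy5 arrays it was at 0.06 on array 6 and 0.89 on array 9. On mutant-Cy3 arrays it was at 0.15 on array 7 and -0.25 on array 8. On the same arrays the first probe was at -1.18 and -0.95 on mutant-Cy5 arrays, and at 1.38 and 1.04 on mutant-Cy3 arrays. The second probe minus the first was therefore 1.24 and 1.84 on mutant-Cy5 arrays, and -1.23 and -1.29 on mutant-Cy3 arrays. By sign, the second probe lay opposite to the first on arrays 6, 8 and 9 and on the same side on array 7, and its values on arrays 6 and 7 were near 0. The sources used here do not say which transcripts of Nt5c2 each probe detects. With both probes averaged before the fit, the dye-switching component of Nt5c2 was -0.98 ± 0.12 (SE). The second probe entered that average on arrays 6, 7, 8 and 9 only. On all other arrays the average is the first probe alone, so -0.98 does not show the pattern in the second probe.

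The shared component of Nt5c2 is not the value it was chosen for, but the choice limits it. A log ratio that turns sign with the dyes must have a shared component smaller in size than its dye-switching component. The shared component was 0.10 ± 0.09 (SE, n = 15 arrays), with a 95% confidence interval from -0.08 to 0.28. It did not pass the threshold in limma (adjusted p = 0.719, unadjusted p = 0.273). On a linear scale the interval runs from 0.944-fold to 1.21-fold. In this component 0% of the 8058 tested probes passed, and 765 (9.49%) had an unadjusted p under 0.05. The interval treats the arrays as independent, though they draw on 5 mutant brains and 1 pool. With 1 value per run of 4 arrays, the shared component was 0.12 ± 0.12 (SE, limma adjusted p = 0.827).

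Arrays that follow each other in accession order carried both orientations in alternation, so each run of 4 arrays gives its own estimate of both parts. These runs were formed after the data were seen, and the labels do not say what they share. For arrays 1 to 4, Nt5c2 averaged -1.51 on mutant-Cy5 arrays and 1.03 on mutant-Cy3 arrays. For arrays 5 to 8 it averaged -1.19 on mutant-Cy5 arrays and 1.21 on mutant-Cy3 arrays. For arrays 9 to 12 it averaged -0.72 on mutant-Cy5 arrays and 1.54 on mutant-Cy3 arrays, and for arrays 13 to 15 it stood at -0.62 on the mutant-Cy5 array and averaged 1.27 on mutant-Cy3 arrays. The dye-switching part was close to the same size in the first 3 runs, at -1.27, -1.20 and -1.13, and stood at -0.95 in the last, which has 1 mutant-Cy5 array. The shared part was -0.24, 0.01, 0.41 and 0.33. Of the 8 arrays in the first 2 runs, all but array 7 (1.38) lay below the mean of their orientation, and of the 7 in the last 2 runs, all but array 14 (1.12) lay above it.

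**Figure D2:**
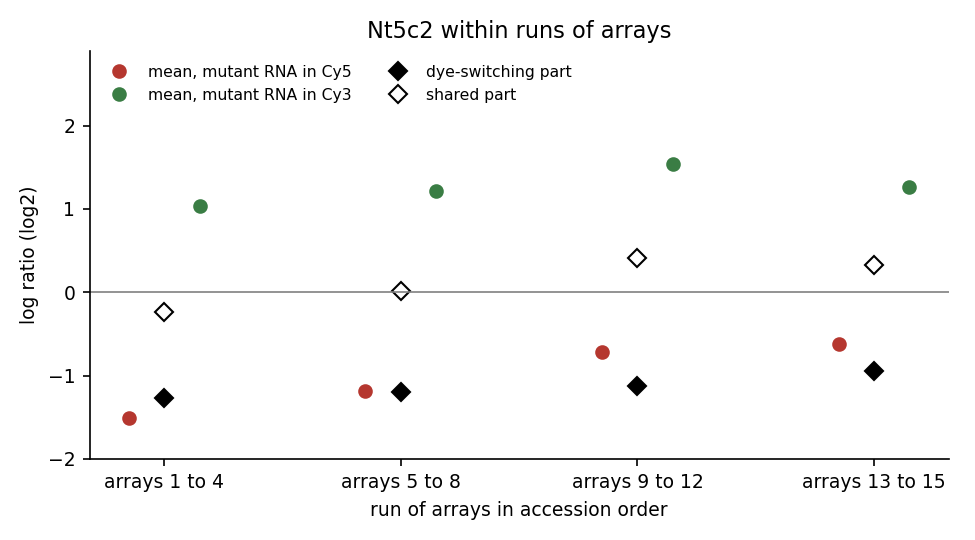
Mean log ratio of Nt5c2 (log2, vertical axis) by dye of the mutant RNA, and the dye-switching and shared parts made from them, in 4 runs of arrays in accession order (horizontal axis). The dye-switching part lies between -1.27 and -0.95, and the shared part between -0.24 and 0.41. A point is a mean of 1 or 2 arrays, and no error is drawn.

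The other genes of nucleotide metabolism were then examined, to see whether enzymes around Nt5c2 differed in the same comparison. Of 124 such genes in 10 lists, 78 were on the array and 36 had a tested probe, with 43 probes in all. In the dye-switching component 1 of these 43 probes passed the threshold, beside 0.645% of all 8058 tested probes. It was Uck1, on the positive side, and a single called probe says nothing of the lists as a whole. The median of the 43 probes was 0.00 and their median size 0.08, equal to the median size over all tested probes. Of them, 22 were positive and 21 negative. In the shared component none of the 43 passed in limma, beside 0% of all tested probes, and 2 had an unadjusted p under 0.05, a smaller share than the 9.49% of all tested probes.

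Uck1 encodes a kinase that phosphorylates uridine and cytidine in pyrimidine salvage. Its log ratios on mutant-Cy5 arrays were 0.41, -0.08, 0.27, 0.35, 0.64, 0.08 and 0.49 on arrays 1, 2, 5, 6, 9, 10 and 13. On mutant-Cy3 arrays they were -0.31, -0.41, -0.22, -0.34, -0.32, -0.61, -0.06 and -0.28 on arrays 3, 4, 7, 8, 11, 12, 14 and 15. Uck1 lay on its side on 14 of 15 arrays, opposite to Nt5c2, and the orientations overlapped only between array 2 at -0.08 and array 14 at -0.06. Its dye-switching component was 0.31 ± 0.06 (SE), or 1.24-fold, with a limma adjusted p of 0.0177. With 1 value per run of 4 arrays, chosen after the data were seen, it was 0.33 ± 0.07 and no longer passed (adjusted p = 0.509).

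The relatives of Nt5c2 that remove phosphate from nucleotides did not pass in either component. Of 10 listed, 7 were on the array and 4 had a tested probe. Nt5c, which acts on deoxynucleotides, was at -0.07 ± 0.08 (SE) in the dye-switching component, with an interval from -0.24 to 0.10. Nt5c1b, an AMP-preferring relative, was at -0.04 ± 0.06, with an interval from -0.16 to 0.09.

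Nt5c3 encodes a nucleotidase that acts on pyrimidine nucleotides. The dye-switching component of both its probes had the sign opposite to that of Nt5c2. The first Nt5c3 probe was at 0.36 ± 0.20 (SE) over 12 arrays, limma adjusted p = 0.599. The second was at 0.47 ± 0.15 over 14 arrays, adjusted p = 0.276 and unadjusted p = 0.00722. On the second probe, values on mutant-Cy5 arrays ran from -0.35 to 1.55 with a median of 0.35, and those on mutant-Cy3 arrays from -1.84 to 0.04 with a median of -0.24. The orientations overlapped, and 12 of 14 arrays lay on the side that a positive dye-switching component gives, above 0 with the mutant in Cy5 and below 0 with it in Cy3. On the first Nt5c3 probe only 7 of 12 arrays lay on that side. Nt5c3b, which can also act on the cap nucleotide 7-methylguanosine monophosphate, was at 0.29 ± 0.20 (limma adjusted p = 0.699), with 8 of 12 arrays on that side. Single arrays at -2.48 and -1.84 (the Nt5c3 probes) and -2.44 (Nt5c3b), all of them mutant-Cy3 arrays, stood far from the rest of their orientation. With robust regression, a probe of Nt5c3 passed as well, but that setting passed 204 of all tested probes, against 52 in the main fit. The surface enzyme Nt5e, the mitochondrial Nt5m and Nt5dc2 had values on 1, 3 and 0 arrays.

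Enzymes that make or interconvert purines showed no probe past the threshold. In purine synthesis, the 3 tested genes ran in the dye-switching component from -0.15 ± 0.10 (SE) for Paics to 0.05 ± 0.20 for Pfas. Between them lay Prps1, which makes the ribose phosphate precursor, at -0.12. Of the steps from IMP to AMP and GMP, only Adss, which takes IMP toward AMP, was tested, at 0.01 ± 0.20. Impdh1 and Gmps, which take IMP toward GMP, each had a value on 1 array, so the branch that feeds a preferred substrate of Nt5c2 was not measurable here.

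Among 6 tested salvage and breakdown genes, the dye-switching component ran from -0.23 ± 0.07 (SE) for Ahcyl1 to 0.05 ± 0.08 for Ada. Ahcyl1, a relative of adenosylhomocysteinase that binds the IP3 receptor, had an unadjusted p of 0.00311 and a limma adjusted p of 0.19. Ada, adenosine deaminase, acts downstream of nucleotidases on adenosine. Adk, adenosine kinase, which returns adenosine to AMP, was at -0.15 ± 0.12. Dck, a deoxynucleoside kinase, was at -0.05 ± 0.08. Pnp, which splits the inosine and guanosine that Nt5c2 releases, had values on 2 arrays.

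The 7 probes of nucleotide kinases ran from -0.13 ± 0.07 (SE) for Ak3, of mitochondria, to 0.20 ± 0.13 for Ak8. The second Ak3 probe was at -0.03. Nucleoside transport and surface breakdown, with 6 probes, ran from -0.14 ± 0.12 for Entpd1 to 0.09 for Slc28a2 and Slc29a3. Here probes of 1 gene disagreed in sign, with Entpd1 at -0.14 and 0.03 and Slc29a3 at -0.09 and 0.09. One Slc29a3 probe had a shared component of 0.19, unadjusted p = 0.0103 and limma adjusted p = 0.402.

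Beside Uck1, the pyrimidine list held 1 more tested gene, the thymidine phosphorylase gene Tymp, at -0.09 ± 0.08 (SE). Deoxynucleotide supply, with 8 probes of 5 genes, ran from -0.12 ± 0.18 for Samhd1, which degrades deoxynucleotides, to 0.10 ± 0.07 for Rrm1, a subunit of ribonucleotide reductase. The list of AMP-activated kinase, the sensor of the AMP that nucleotidases remove, holds its subunits and kinases that act on it. The 5 tested genes of this list ran from -0.08 ± 0.13 for Prkag1 to 0.15 ± 0.08 for Prkab2. Prkaa1, a catalytic subunit of AMP-activated kinase, stood at 0.28 in the shared component, unadjusted p = 0.00434 and limma adjusted p = 0.382. Adenosine receptors had no tested probe.

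**Figure D3:**
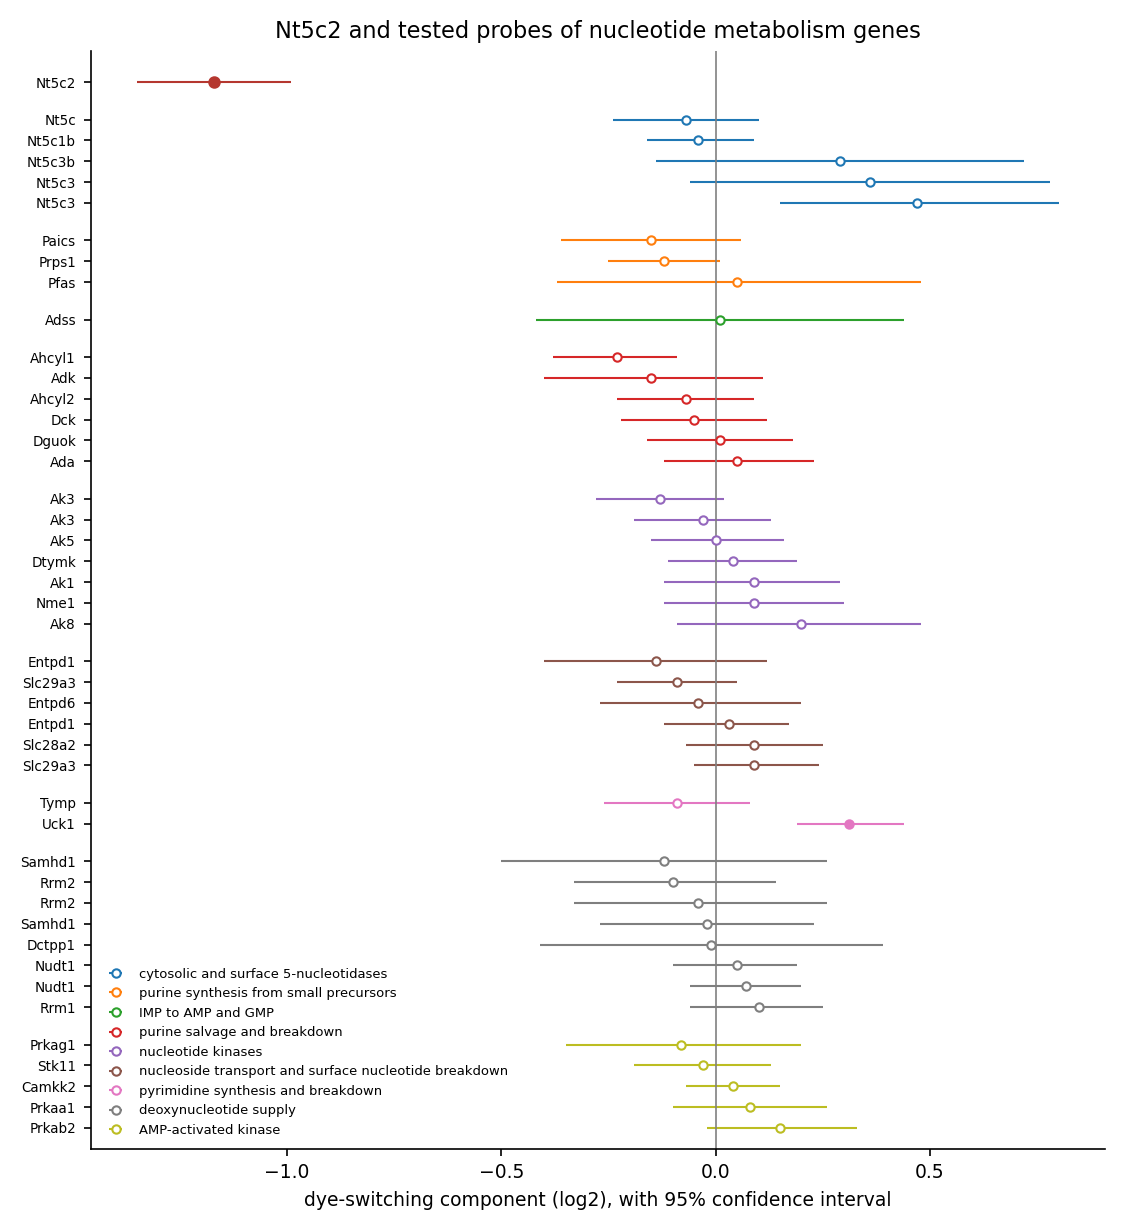
Dye-switching component (log2, horizontal axis) with 95% confidence interval for Nt5c2 and for 43 tested probes of nucleotide metabolism genes (vertical axis, coloured by list). Filled points are Nt5c2 and the only listed probe past the threshold, Uck1 at 0.31, and open points did not pass. All 43 lie between -0.23 and 0.47, and Nt5c2, which was chosen for its value, lies at -1.17.

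Genes next to Nt5c2 on its chromosome were examined too, as the 15 protein-coding genes on each side in the order of the GRCm38.p6 reference. Of these 30 genes, 22 were on the array and 8 had a tested probe, with 9 probes. None passed in the dye-switching component in limma, and 1 had an unadjusted p under 0.05, beside 9.57% of all tested probes. The nearest tested gene was Ina, the next gene in that order, which encodes the neuronal intermediate filament alpha-internexin. Ina was at 0.03 ± 0.11 (SE) over 11 arrays, with an interval from -0.22 to 0.28. Atp5md, of the ATP synthase complex, was at -0.09 ± 0.07, and on the other side Sfxn2, a mitochondrial carrier of the sideroflexin family, was at 0.07 ± 0.07. The small GTPase gene Arl3 was at 0.03 ± 0.08, the dynactin gene Actr1a at 0.00 ± 0.08 and Mfsd13a at -0.09 ± 0.10.

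Sufu, an inhibitor of hedgehog signalling, had 2 probes at 0.17 ± 0.08 (SE) and 0.00 ± 0.32. The membrane channel gene Calhm2 was at -0.34 ± 0.50, where array 7, of the mutant-Cy3 arrays, alone stood at 7.13. The interval of Calhm2 ran from -1.41 to 0.73. The shared component of these neighbours also had no probe past the threshold in limma. In it 4 of the 9 probes had an unadjusted p under 0.05, beside 9.49% of all tested probes: Sufu at 0.23, Sfxn2 at 0.20, Ina at 0.30 and Actr1a at -0.18, with limma adjusted p of at least 0.401.

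**Figure D4:**
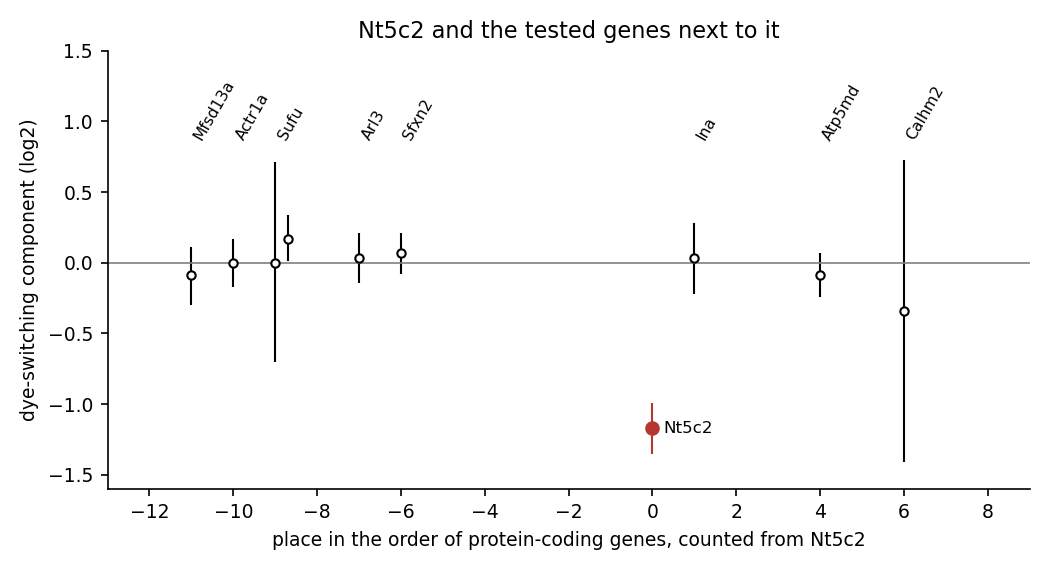
Dye-switching component (log2, vertical axis) with 95% confidence interval for Nt5c2 and the 9 tested probes of the genes around it (horizontal axis, place in the order of protein-coding genes). The neighbours lie between -0.34 and 0.17. Nt5c2, which was chosen for its value, lies at -1.17, within the wide interval of Calhm2 (-1.41 to 0.73).

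Likeness to Nt5c2 was measured by Pearson's r over arrays, among 4190 probes with 1 gene symbol and at least 12 arrays shared with Nt5c2. All arrays share the wild-type pool and draw on the same 5 mutant brains, so r is given as a description. With orientation means kept, r mostly reflects the gap between the 2 orientations, and no pooled value is printed. The 5 genes most like Nt5c2 by it were Lpl, Ifi27, Pnliprp1, Scg5 and Ccl27a. The 5 most opposite were Capn3, Serpina12, Xbp1, Nr4a1 and Atp5g2. Lpl, the lipoprotein lipase, averaged -1.08 on mutant-Cy5 arrays and 0.77 on mutant-Cy3 arrays. Pnliprp1, a relative of pancreatic lipase, averaged -0.41 on mutant-Cy5 arrays and 0.22 on mutant-Cy3 arrays.

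Within one orientation, r to Nt5c2 was smaller in size. For Lpl it was 0.37 over mutant-Cy5 arrays and 0.11 over mutant-Cy3 arrays. The other 4 of the genes most like Nt5c2 lay between -0.27 and -0.11 over mutant-Cy5 arrays, and between -0.01 and 0.49 over mutant-Cy3 arrays. Of the most opposite genes, 3 had a negative r in both orientations. It was small in size for Capn3 over mutant-Cy3 arrays and for Serpina12 over mutant-Cy5 arrays. Capn3 was at -0.60 over mutant-Cy5 arrays and -0.11 over mutant-Cy3 arrays, Serpina12 at -0.25 over mutant-Cy5 arrays and -0.67 over mutant-Cy3 arrays, and Nr4a1 at -0.48 over mutant-Cy5 arrays and -0.64 over mutant-Cy3 arrays. Atp5g2 was at -0.40 over mutant-Cy5 arrays and 0.56 over mutant-Cy3 arrays, and Xbp1 at 0.28 over mutant-Cy5 arrays and 0.04 over mutant-Cy3 arrays. Few arrays stand behind each of these values, so the sign of a small r is uncertain.

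With orientation means removed, the genes that varied most like Nt5c2 between arrays were different genes, with components near 0. They were Tmem176b (r = 0.839), the splicing regulator genes Mbnl2 (0.835) and Sfpq (0.825), Ctdspl2 (0.818) and the calpain inhibitor gene Cast (0.804), over 13 to 15 arrays. The most opposite were the mitochondrial ribosomal gene Mrpl10 (r = -0.879), Kdelr2 (-0.867), of retrieval to the endoplasmic reticulum, the ankyrin gene Ank3 (-0.865), the glutamate receptor gene Grm4 (-0.85) and the transcription regulator gene Id1 (-0.841). Spearman's rho was between 0.742 and 0.836 for the first 5 genes, and between -0.886 and -0.743 for the other 5. For the first 5, r lay between 0.82 and 0.97 over mutant-Cy5 arrays and between 0.44 and 0.86 over mutant-Cy3 arrays. For the other 5, r lay between -0.99 and -0.83 over mutant-Cy5 arrays and between -0.87 and -0.52 over mutant-Cy3 arrays. Over all 4190 probes r lay between -0.597 at the fifth percentile and 0.594 at the 95th percentile, so large values of r were common over these arrays. The dye-switching components of these 10 genes lay between -0.14 and 0.08.

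Markers of brain cell types were also read in the dye-switching component. Of the 4 neuronal probes, Thy1, a neuronal surface glycoprotein, passed at -0.53 ± 0.11 (SE, limma adjusted p = 0.0276). The other 3, of Stmn2, Rbfox3 and Gad1, were at -0.04, 0.01 and 0.12. Of all 8058 tested probes, 0.645% passed in this component, and a single called probe says nothing of neurons as a whole. The 3 astrocyte probes lay between -0.15 and -0.04, the 2 probes of the myelin gene Mbp at -0.22 and -0.03, and the 2 microglial probes at -0.05 and 0.00. The 2 probes of the endothelial gene Flt1 were at -0.14 and 0.04, and the red blood cell gene Alas2 at -0.01. The part of cell makeup in the values of Nt5c2 was not tested.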

How the data were processed

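Values were used as the authors deposited them, as log ratios taken as log2, with 1 for each probe on each array. Base 2 was assumed, since 1 value reached 12.33 in size, which exceeds the natural log of the largest ratio of a 16-bit scanner, 11.09. Centring was done before deposit, and many spots of each array had been left out, by rules not given in the sources used here. Intensities of the scanner were not analysed here, and a missing value cannot be told from a dim spot. The number of arrays limits the precision.

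Arrays are numbered 1 to 15 in accession order. Probes measured on 4 or more arrays in both dye orientations were fitted in limma 3.58.1 (R 4.3.3) on an intercept and the dye of the mutant RNA, coded 1 for Cy5 and -1 for Cy3. Tests were eBayes moderated, with Benjamini-Hochberg adjustment over all 8058 tested probes and a threshold of 0.05. The model was run on simulated data with independent normal noise. It recovered 98% of dye-switching changes of 1.2 in size, 86% of 0.6 and 32% of 0.3, and 5.4% of its calls were false. The simulation held no shared brains, no differences between runs and no outlying spots, so it does not test the model against these. Probe symbols come from the platform annotation, updated by gene identifier to names of GRCm38.p6. Of 20205 probes, 11723 had 1 symbol, 806 several and 7676 none. Coordinates are left out, since the genome build of the arrays is not given.

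Named genes are each Nt5c2 probe, list members past the threshold, the highest and lowest member of each list, tested nucleotidases and neighbours, the 5 highest and 5 lowest genes by likeness, and the 3 genes next in size on either side. Ahcyl2, Dguok and other list members not named were only counted. Prps1, Adk, Dck, Slc29a3, Prkaa1, Impdh1, Gmps, Pnp, Nt5e, Nt5m, Nt5dc2 and the marker genes named were not taken by this rule, and were picked with their values in view. The gene and the lists were chosen with earlier results of these data known. Alternatives were other centring, scaling, filters, weights, variance models, averaged probes and arrays left out. No 2 arrays held the same values, and the highest Pearson r between arrays was 0.135. Figures were drawn with matplotlib 3.10.9.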

Additional observations from a re-analysis of the deposited data

Results flagged for a closer look

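Nt5c2, the tested nucleotidases, the highest and lowest member of each nucleotide metabolism list and the tested neighbours were checked for outlying arrays. Of their 60 sets of array values, 1 per probe and orientation, 9 held a single array far from the others. The other named genes were not checked in this way. Chance gives about 1 in 20. No array of Nt5c2 stood apart in this way in either orientation.

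On mutant-Cy3 arrays, the first Nt5c3 probe was at -2.48 on array 7, where the nearest other value was -0.372, and the second at -1.84 on array 8, nearest -0.327. Nt5c3b was at -2.44 on array 14, nearest -0.169. All 3 values lie on the side of a positive dye-switching component. Samhd1 was at 2.09 on array 7, nearest 0.242, and Calhm2 at 7.13 on array 7, nearest 0.424.

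On mutant-Cy5 arrays, Paics was at 0.844 on array 9, nearest -0.119, and Samhd1 at 1.02 on array 9, nearest 0.0915. Sufu was at -2.57 on array 1 for 1 of its probes, nearest 0.611, and Atp5md at -0.871 on array 10, nearest -0.332.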

How the results depend on the processing

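The dye-switching component of Nt5c2, -1.17, kept its sign in all alternatives run. That sign is no support, since Nt5c2 was chosen for this value. All 15 values of its first probe lay on the side set by the dyes, so leaving out arrays could not turn it. Leaving out each array in turn gave -1.21 (without array 10) to -1.12 (without array 1). The 13 others gave -1.28 (quantile normalization) to -0.98 (both probes averaged, the second having values on 4 arrays only). Nt5c2 stayed the most negative tested probe without any 1 array, was 5th on that side when 3 arrays per orientation sufficed, and 2nd with probes averaged. The shared component, 0.10, kept its sign and missed the threshold throughout, from 0.05 to 0.14 with arrays left out and from 0.03 to 0.18 otherwise (limma adjusted p from 0.545 to 0.903). The count of nucleotide metabolism probes past the threshold in the dye-switching component, 1, was 2 with robust regression (Uck1 and Nt5c3) and 0 with 1 value per run of 4 arrays, which leaves at most 4 values per probe and was added once the data were known. It was 1, Uck1, in every other alternative, with arrays left out giving 1 throughout. The limma adjusted p of Uck1 was between 0.00689 and 0.0467 with arrays left out. In the shared component that count stayed at 0. Over all tested probes, the dye-switching count of 52 was 36 without array 11, 34 with probes averaged, 204 with robust regression and 2 with 1 value per run, and the shared count of 0 was 107 with robust regression. The causes were not tested. A gene with no value on most arrays could not be tested at all.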
